A study of Caenorhabditis elegans with 9 samples.

Results

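C06C6.7, F16H6.9 and C18A11.4 are 3 protein-coding genes of Caenorhabditis elegans that are known only by their sequence names, out of 17118 genes with a probe set of their own on the array. They were chosen because, on the probe set annotated to that gene alone, all arrays of Wnt pathway overactivation read above all arrays of N2 and of Wnt pathway underactivation. These readings picked the genes, so the comparisons of overactivation with the other groups are given as a description, with no test. Each gene had 1 probe set of its own. F16H6.9 also has a probe set that it shares with F16H6.8. In all, 683 of 22548 probe sets, or 3.03%, met this rule. Taken separately, the overactivation arrays lay above all N2 arrays in 11.6% of probe sets and above all underactivation arrays in 6.59%.

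Each of 9 Affymetrix arrays for C. elegans read 1 sample, with 3 samples per group. Overactivation animals were deIs10; huIs1, in which the heat shock promoter of hsp-16.2 drives a β-catenin, BAR-1, that lacks its amino terminus. Underactivation animals were deIs10; deIs26, in which the same promoter drives a TCF factor, POP-1, that lacks the part binding β-catenin. Both tagged strains carry dpy-20(e1282) and unc-30(e191) with rescuing transgenes, ajm-1::gfp, and FLAG::PAB-1 under a bar-1 enhancer active in the seam cells and vulval precursor cells (VPCs). The N2 wild type carries none of these, although its label names the same cells. A difference from N2 therefore cannot be told apart from an effect of the tag, of the enrichment through it or of the strain background. Overactivation and underactivation differ in an integrated transgene, huIs1 or deIs26. An effect of its insertion cannot be told apart from that of the induced protein. All groups grew for 26 h at 20°, to the molt between the L2 and L3 larval stages. A heat shock of 30 min at 37° and a recovery of 1 h followed, and RNA was then coimmunoprecipitated through FLAG. The heat shock promoter is not limited to the tagged cells. The arrays read a mixture of transcripts, in which more cells of a type and more RNA per cell cannot be told apart. The study describes the samples of each group as biological triplicates. FLAG::PAB-1 stems from 1 integrated line.

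In Wnt signaling, β-catenin that escapes degradation enters the nucleus and joins a TCF factor on target genes, whose transcription then rises. In the larval epidermis of C. elegans this route acts together with Ras and Notch signaling to set which VPCs make the vulva. A related route, which also ends at POP-1, makes the daughters of a seam cell division differ. Seam cells divide in a stem cell-like manner and later secrete the ridges of the adult cuticle. A sequence name joins the name of a sequenced clone to a number and says nothing of what a gene does. The sources used here give no function for any of these 3 genes.

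Some values of the whole series touch the results. The genes of the induced proteins read highest in their own strain. The level of bar-1 was 9.04, 9.55 and 9.18 on the log2 scale in N2 (replicates 2, 3 and 4), 9.55, 9.15 and 9.40 in underactivation (replicates 2, 4 and 5), and 10.002, 9.64 and 11.75 in overactivation (replicates 1, 3 and 4). Overactivation replicate 4 stood well above the rest, and replicate 3 was within 0.09 of the highest N2 array. The level of pop-1 was 8.67 to 11.71 in underactivation and 4.81 to 6.42 on the other arrays. Of 11 seam cell and VPC markers, 9 had their own probe set (nhr-73 and nhr-74 had none). Among these 9, elt-6 and bar-1 met the rule, as 3.03% of all probe sets did. Neither is a neutral marker, since bar-1 is the gene induced in overactivation and the study reports elt-6 as a Wnt target. Among the other markers, the study also reports egl-18 as a target and names lin-39 as a predicted one. The mean level of the 9 markers was 7.48 to 7.93 in overactivation, 6.88 to 7.14 in N2 and 6.52 to 7.31 in underactivation. The overactivation arrays were thus highest, as in the 3 genes. Without bar-1, but with elt-6, egl-18 and lin-39 kept, these ranges were 7.17 to 7.46, 6.60 to 6.84 and 6.19 to 7.05. The mean level of 5 body wall muscle markers was 9.05 to 9.72 in overactivation and 10.23 to 10.41 in N2, and underactivation, from 9.61 up, overlapped overactivation. That of 5 intestine markers was 5.77 to 6.34 in overactivation, 6.51 to 7.24 in N2 and 5.57 to 6.78 in underactivation. For the pharynx, hypodermis and neuron markers the overactivation arrays overlapped those of N2. That of 5 germline markers was 6.51 to 6.82 in overactivation, 7.23 to 7.31 in N2 and 6.60 to 6.80 in underactivation. The log2 signal has no zero, so no marker can be called absent. The part of these shifts in the results below was not tested.

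C06C6.7 read far higher in Wnt overactivation than in the other groups. Its log2 signal was 5.96, 7.43 and 8.05 on overactivation replicates 1, 3 and 4. On N2 replicates 2, 3 and 4 it was 3.05, 3.17 and 2.62, and on underactivation replicates 2, 4 and 5 it was 3.32, 3.31 and 2.95. The overactivation arrays stood clear of all others and spread widely among themselves, with replicate 1 lowest and replicate 4 highest. The group means were 7.15 ± 1.07 in overactivation, 2.95 ± 0.29 in N2 and 3.19 ± 0.21 in underactivation (SD, n = 3 arrays each). The difference was thus 4.20 log2, or 18.3-fold, over N2 and 3.95 log2, or 15.5-fold, over underactivation. The distance from the lowest overactivation array to the highest other array was 2.64, which ranks 1 among all 22548 probe sets.

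F16H6.9 differed by a smaller and very even step. It read 4.03, 3.94 and 4.02 on overactivation replicates 1, 3 and 4, which lie within 0.09 of each other. It read 2.83, 2.87 and 2.49 on N2 replicates 2, 3 and 4, and 2.63, 2.66 and 2.43 on underactivation replicates 2, 4 and 5. The groups outside overactivation overlapped each other. The means were 4.00 ± 0.05 in overactivation, 2.73 ± 0.21 in N2 and 2.57 ± 0.12 in underactivation (SD, n = 3 arrays each), differences of 1.26 log2 (2.40-fold) and 1.42 log2 (2.68-fold). The probe set shared with F16H6.8 did not show this step. It read 3.17, 3.47 and 3.02 in overactivation, 3.57, 3.43 and 2.80 in N2 and 3.25, 3.33 and 2.84 in underactivation, and all 3 groups overlapped. This probe set cannot be assigned to either gene, so F16H6.9 has no second reading of its own.

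C18A11.4 read highest in overactivation too, and was the 1 gene of the 3 in which the underactivation arrays also lay above all N2 arrays. The signal was 4.38, 4.58 and 5.13 on overactivation replicates 1, 3 and 4, then 3.51, 3.28 and 3.74 on underactivation replicates 2, 4 and 5, and 2.90, 3.23 and 3.17 on N2 replicates 2, 3 and 4. The step between the lowest underactivation array and the highest N2 array was small, and 8.3% of all probe sets had such an order. Means were 4.70 ± 0.39 in overactivation, 3.51 ± 0.23 in underactivation and 3.10 ± 0.17 in N2 (SD, n = 3 arrays each). Overactivation exceeded N2 by 1.60 log2 (3.03-fold) and underactivation by 1.19 log2 (2.28-fold). The plot of single arrays shows the large difference in C06C6.7, the even step of F16H6.9 and the order of the groups in C18A11.4.

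**Figure D1:**
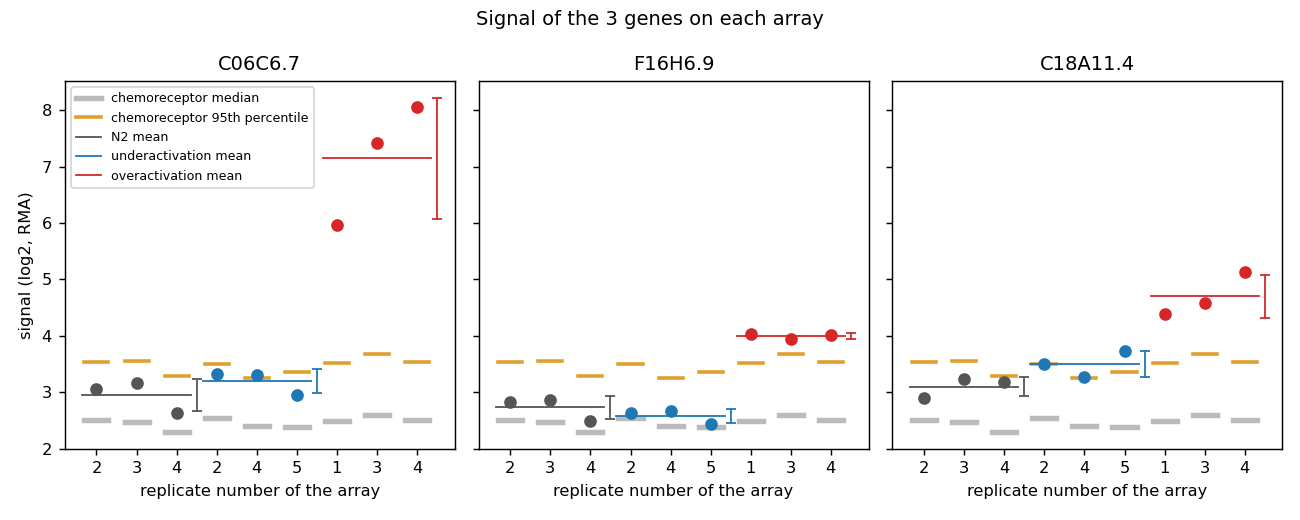
Log2 signal of C06C6.7, F16H6.9 and C18A11.4 on each of the 9 arrays (dots; x axis, replicate number; grey N2, blue underactivation, red overactivation), with group means (lines) and SD (bars, n = 3), beside the median and the 95th percentile of 648 chemoreceptor probe sets on the same array. The overactivation arrays of C06C6.7 read 5.96 to 8.05, those of F16H6.9 3.94 to 4.03 and those of C18A11.4 4.38 to 5.13, all above the 95th percentile marks. The underactivation arrays of C18A11.4 lay above these marks too.

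The comparison that the choice of genes did not use is underactivation with N2, since the rule did not look at the order among those 6 arrays. In limma's moderated test over all 22548 probe sets, 0 of the 3 genes passed. The background was 0.00443% of probe sets at an adjusted p under 0.05, which is 1 probe set, lower in underactivation, with 2890 at an unadjusted p under 0.05. C06C6.7 differed by 0.24 log2 (standard error 0.47, 95% interval -0.81 to 1.30, adjusted p = 0.908 by Benjamini-Hochberg). F16H6.9 differed by -0.16 log2 (standard error 0.17, 95% interval -0.55 to 0.24, adjusted p = 0.797). C18A11.4 differed by 0.41 log2 (standard error 0.24, 95% interval -0.13 to 0.94, adjusted p = 0.545, unadjusted p = 0.120), with 3 of 3 underactivation arrays above all N2 arrays. For C06C6.7 the interval spans 0.569 to 2.47 times the N2 level, so equal levels are not shown. The fit shares 1 estimate of the spread over the 3 groups. The spread of C06C6.7 in overactivation (SD 1.07, against 0.29 in N2 and 0.21 in underactivation) therefore widened this interval. In limma's test with only the 2 groups compared, its adjusted p was 0.755. The SD of C18A11.4 in overactivation, 0.39, likewise entered its shared estimate, against 0.17 in N2 and 0.23 in underactivation. In the 2-group limma test the adjusted p was 0.493 for C18A11.4 and 0.828 for F16H6.9. Thus none of the 3 genes passed in either fit.

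Outside overactivation the signals were low. On the N2 arrays C06C6.7 read at or above 15.6% to 24.9% of all probe sets, F16H6.9 at most 18.3% and C18A11.4 18.6% to 27.3%. The chemoreceptor families srh, str, sri, srd and srw, receptors that are mostly used by few sensory neurons, give a scale for such readings. Their 648 probe sets had medians of 2.29 to 2.59 over the 9 arrays. In N2 the 3 genes read above 69.3% to 93.8% of them, thus inside their range. In underactivation F16H6.9 read above 55.4% to 75.9% of them, C06C6.7 above 86.9% to 95.5% and C18A11.4 above 95.1% to 97.2%. C18A11.4 thus stood near the top of these families in underactivation too. In overactivation all 3 genes did so. C06C6.7 read above 99.8% to all of them, C18A11.4 above 99.1% to 99.5% and F16H6.9 above 97.4% to 98.3%. Within all probe sets of an overactivation array C06C6.7 stood at 64.3% to 84.2% and C18A11.4 at 44.7% to 54.8%, whereas F16H6.9 reached 38.3% to 40.3% and so stayed below the middle of the array. Detection calls were not used here, and the size of a fold over a group this low is uncertain. The chemoreceptor probe sets themselves met the rule in 26 of 648 cases, or 4.01%, near the 3.03% of all probe sets.

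Other measures of the arrays also varied between groups. On underactivation replicates 2 and 5 the actin control read higher at its 3' than at its 5' end by 2.08 and 2.35 log2, a measure of how far the labeled material reaches along a transcript. It was 1.88, 2.25 and 1.47 on overactivation replicates 1, 3 and 4, and 0.67 to 0.91 in N2. It was 0.90 on underactivation replicate 4. The heat shock gene hsp-70 read 5.77, 4.73 and 8.13 in overactivation, 5.86, 10.19 and 11.16 in N2, and 8.71, 10.06 and 6.92 in underactivation. The part of either measure in the results was not tested. Within overactivation, replicate 4 had the highest level of bar-1, of C06C6.7 and of C18A11.4, and replicate 3, which had the lowest level of bar-1, was not the lowest of the 3 arrays in either gene. In F16H6.9 replicate 3 was the lowest, at 3.94, and replicates 1 and 4 read 4.03 and 4.02, with levels of bar-1 of 10.002 and 11.75.

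Among the probe sets of 1 gene, 608 met the rule, and they belong to 594 genes. Of these genes 235, or 39.6%, carry a sequence name only, against 39.2% of all 17118 genes, so such names were about as common under the rule as elsewhere. The median difference in the 608 probe sets was 0.64 log2 over N2 and 0.51 over underactivation. C06C6.7 exceeded all but 1 of them in its difference from N2 and all of them in its difference from underactivation. F16H6.9 was exceeded by 140 in the difference from N2 but by only 46 in that from underactivation, and C18A11.4 by 74 and 71. All 3 genes were at least 1.5-fold higher in overactivation than in either other group. So were 227 of the 608 probe sets under the rule, and 3.19% of all probe sets. The rule used the same readings, so this adds no separate evidence. Just inside the rule lay K05G3.1, whose overactivation arrays read 4.36 to 4.50 and whose highest other array read 4.36, and just outside lay kin-14, with 5.02 to 5.36 and 5.02. The 3 genes are thus well inside, by 2.64, 1.07 and 0.64 log2.

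**Figure D2:**
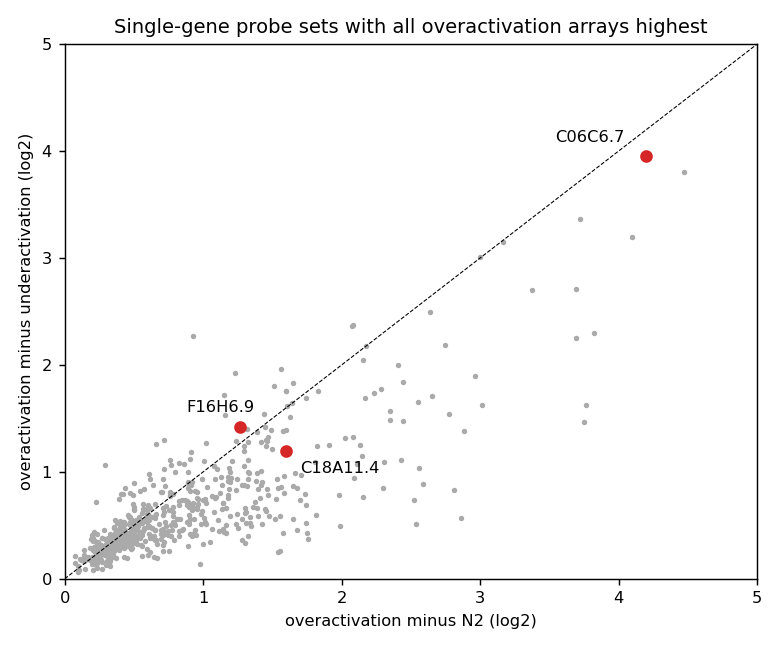
Difference of overactivation from N2 (x axis, log2) against that from underactivation (y axis, log2) for the 608 single-gene probe sets whose overactivation arrays all read highest (grey dots) with the 3 genes in red; the dashed line marks equal differences. C06C6.7 lies at 4.20 and 3.95, near the far end, C18A11.4 at 1.60 and 1.19 below the line, and F16H6.9 at 1.26 and 1.42 above it.

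C06C6.7 lies on chromosome V of assembly WBcel235, among genes that the array also measures. Of its 10 nearest protein-coding neighbors with a probe set of their own, 5 on each side, F36G9.13 and C06C6.8 met the same rule, against 3.03% of all probe sets. F36G9.13, the second gene on one side, read 5.58, 5.13 and 5.18 on overactivation replicates 1, 3 and 4, and 3.40 to 4.35 on the other arrays. C06C6.8, the second gene on the other side, read 4.39, 4.72 and 5.73 on the same overactivation arrays and 3.20 to 3.67 elsewhere. Both stood clear of N2 and underactivation, by 1.39 and 1.45 log2 over N2 and by 1.37 and 1.42 log2 over underactivation, while their underactivation means were within 0.03 log2 of N2. The gene next to C06C6.7, the pseudogene C06C6.6, read 2.59, 2.85 and 2.82 in overactivation and 2.21 to 2.38 elsewhere, a small step of 0.45 log2 over N2 at a very low signal. The immediate protein-coding neighbors F36G9.15 and C06C6.9 differed from N2 by 0.37 and 0.30 log2, and their overactivation arrays overlapped the others. The probe sets of C06C6.8 and C06C6.9 are of a type that can also bind other transcripts. The annotated span of C06C6.8 overlaps that of nhr-50, a nuclear hormone receptor gene. The brighter of the 2 probe sets of nhr-50, of the same type, read 6.80 to 7.74 in overactivation, inside its N2 range of 5.64 to 9.37.

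Most other genes along this stretch did not share the pattern of all overactivation arrays highest. Over the 10 neighbors the median difference from N2 was 0.16 log2 (range -0.24 to 1.45), against 0.04 over all probe sets. Their median difference of overactivation from underactivation was 0.26 log2 (range 0.04 to 1.42), against 0.03 over all probe sets. Among the nearest 20 measured genes of any kind, 10 on each side, 4 met the rule: F36G9.13, C06C6.6, C06C6.8 and the chemoreceptor gene str-233, whose arrays differed by only 0.14 log2 from N2. Of the 10 nearest neighbors of F16H6.9, also on chromosome V, 0 met the rule, against 3.03% of all probe sets. With 10 neighbors, a count of 0 is near that share. Their differences from N2 lay between -1.13 and 0.90 log2, with a median of -0.00. On one side F16H6.7 read 4.59 to 4.69 in overactivation and 4.73 to 5.18 in underactivation, both above its N2 arrays at 3.82 to 4.23, and on the other side F16H6.10 read 4.26 to 5.87 in overactivation and 3.96 to 7.96 in N2.

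Around C18A11.4, which lies on the X chromosome, 0 of 10 neighbors met the rule, again near the 3.03% of all probe sets. The nearest on each side are xol-1, the gene that starts male development, at 2.33 to 3.05 over all arrays, and dim-1, a muscle gene, at 10.26 to 11.23. Neither differed from N2 in overactivation by more than 0.09 log2. A few steps on, C46F2.1 read 4.87 to 5.60 in overactivation and 4.64 to 5.58 in underactivation against 7.57 to 9.39 in N2, so that both tagged strains were low. The plot by gene order shows that several neighbors of F16H6.9 and C18A11.4 did differ from N2, some in both tagged strains, but none with all overactivation arrays highest.

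**Figure D3:**
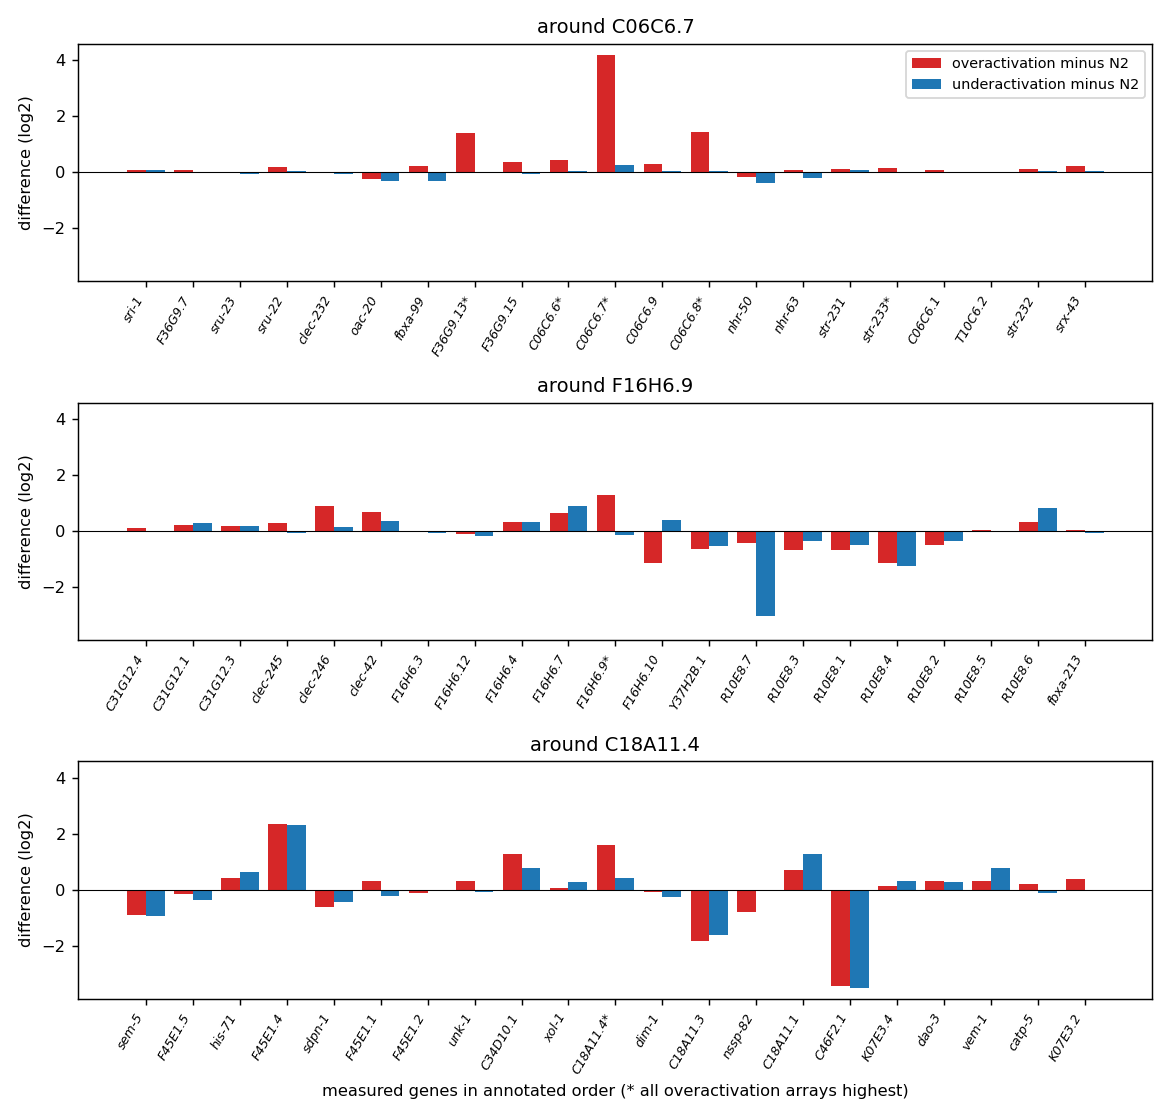
Difference from N2 (y axis, log2) of overactivation (red) and underactivation (blue) for each gene and its nearest 10 measured genes on each side in annotated order (x axis); stars mark genes whose overactivation arrays all read highest. Around C06C6.7 (4.20) the genes F36G9.13 (1.39) and C06C6.8 (1.45) had red bars with hardly any blue, whereas no neighbor of F16H6.9 or C18A11.4 has a star.

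The genes most alike in pattern were found by Pearson's r of the log2 signal over the 9 arrays, among all other single-gene probe sets. Since the arrays fall into a high group and a low remainder, a high r mostly states that a probe set shared this division. C06C6.7 was most like srw-93, a chemoreceptor pseudogene (r = 0.992), its own neighbor C06C6.6 (r = 0.983), ttr-56, a gene of the transthyretin-related family (r = 0.981), fbxa-116, an F-box gene (r = 0.979), and F55C5.6, a pseudogene (r = 0.964). Of these, srw-93 read 4.03 to 5.73 in overactivation and 1.85 to 2.25 on the other arrays, and fbxa-116 read 5.31 to 8.35 and 2.33 to 3.64. The spread of fbxa-116 in overactivation was wider than that of C06C6.7, at 3.04 against 2.09 log2 from lowest to highest array. F16H6.9 was most like srw-92 (r = 0.986), a pseudogene that lies next to srw-93, and then tbb-6, a β-tubulin gene (r = 0.981), B0218.7 (r = 0.967), dod-23, a gene named for acting downstream of the FOXO factor DAF-16 (r = 0.966), and F55C5.6 (r = 0.964). The signal of srw-92 was 3.66 to 4.04 in overactivation and 2.38 to 2.63 elsewhere, close to the readings of F16H6.9. All 9 of these genes met the rule, and in each the underactivation mean lay within 0.67 log2 of N2.

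The genes most like C18A11.4 were rocf-1 (r = 0.966), M04C9.1 (r = 0.959), nhr-23, the nuclear hormone receptor gene that drives molting (r = 0.956), dnj-14, a gene of the J-domain cochaperones (r = 0.954), and col-49, a cuticle collagen gene (r = 0.953). In all 5 the underactivation mean lay above N2, by 0.30 to 1.24 log2. This follows in part from the way they were found, since r took in the underactivation and N2 arrays. For rocf-1 the arrays read 3.65 to 3.86 in N2, 4.33 to 4.64 in underactivation and 5.41 to 6.24 in overactivation, with no overlap between groups. The groups did not overlap in M04C9.1, dnj-14 and col-49 either, whereas the N2 and underactivation arrays of nhr-23 did. The likeness of nhr-23 rests on a probe set that is not its brightest, and the brightest did not meet the rule.

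**Figure D4:**
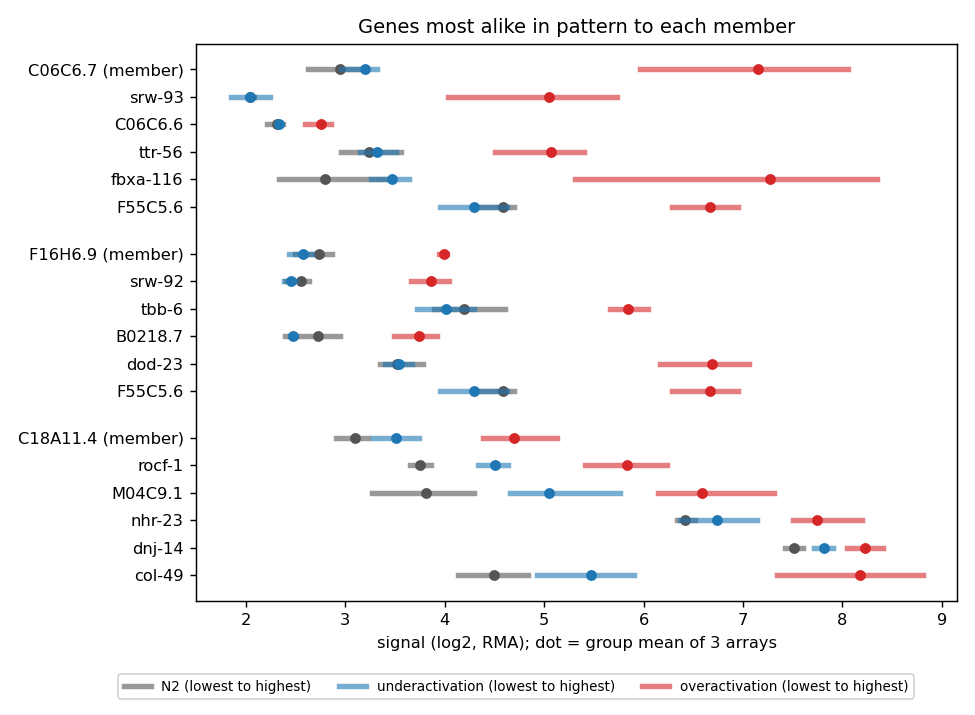
Log2 signal (x axis) of each gene and of the 5 genes with the highest Pearson r to it over the 9 arrays, as group means (dots) and lowest to highest array (bars) for N2 (grey), underactivation (blue) and overactivation (red). Each gene is shown by the probe set that gave its r. The overactivation bars lie to the right of the other bars on every probe set shown, and the underactivation mean of rocf-1 lies between the other means, with arrays at 4.33 to 4.64.

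Among themselves the 3 genes correlated at r = 0.949 (C06C6.7 and F16H6.9), 0.946 (C06C6.7 and C18A11.4) and 0.860 (F16H6.9 and C18A11.4) over the 9 arrays. Over the 6 arrays outside overactivation the same pairs gave r = 0.49, 0.13 and -0.67, so the likeness over all arrays came with the overactivation group. These points share arrays and a low signal.

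C18A11.4 is also 1 of 13 genes that the study calls strong candidates for targets. It names them as lower upon loss of bar-1 in another group's data, and as higher with activated BAR-1 in its earlier whole-animal work and here. C18A11.4 is absent from the study's list of genes shared with that earlier work, as are col-138, dpy-11, F25E5.2 and grd-2. The study's list of genes shared with the other group's data marks all 13 as higher in the earlier work. Those other data sets were not examined here. The 13 were chosen in part on these arrays, so their values below are no independent evidence. All 13 were measured, and 7 met the rule that chose the 3 genes, as 3.03% of all probe sets did. Their median difference from N2 was 2.02 log2 in overactivation and 0.71 in underactivation, against 0.04 and 0.01 over all probe sets. C18A11.4 had the lowest N2 mean of the 13, at 3.10 where the highest reached 8.87, and 10 of them had a larger difference between overactivation and N2. Its distance from the rest of the arrays, 0.64 log2, came after those of the cuticle collagen genes col-38 (2.15) and col-49 (1.45) and of dao-4 (1.23).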

How the data were processed

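The authors deposited log2 signals, made from scanned Affymetrix arrays with Robust Multichip Average (RMA) in Partek (version not given in the sources used). Groups and replicate numbers came from the sample labels. The labels describe cRNA from total RNA, the methods amplified cDNA from immunoprecipitated mRNA; the signals do not decide between these. Columns of values not used numbered 0, and 77 array controls were left out. The platform annotation gave each probe set its genes, with names updated by gene identifier (20701 of 20766 single-gene probe sets matched); 887 had several genes and 895 none. A neighbor with several probe sets is represented by the one with the highest mean. Gene order is that of assembly WBcel235; the files name no build, so no coordinates are given. No protein or promoter sequence was used here.

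In R 4.3.3, limma 3.58.1 fitted 3 groups to 22548 probe sets (6 residual and 2.71 prior degrees of freedom), two-sided, with Benjamini-Hochberg adjustment at 0.05. The fit was tested on simulated data. Plots used Python 3.11.15 and matplotlib 3.10.9. The genes, lists and rules were chosen with earlier results of these data known. Genes named are the 3 members, per gene the 5 genes most alike and the 5 nearest measured protein-coding neighbors on each side (the nearest ones, and others that stood out, after their values were seen), the transgene genes, hsp-70 and the study's list of 13. The number of arrays limits the precision.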

Additional observations from a re-analysis of the deposited data

How the results depend on the processing

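For underactivation against N2, all 50 values (17 settings for C06C6.7 and C18A11.4, 16 for F16H6.9) kept the direction and none passed, with adjusted p from 0.450 to 0.976; F16H6.9 has no value when dim probe sets (the third with the lowest mean signal) are left out, as it is among them. With the replicate number as a random block (replicate block) the log2 differences were 0.26 for C06C6.7, -0.15 for F16H6.9 and 0.40 for C18A11.4 (adjusted p = 0.887, 0.787 and 0.527), and no call changed. The labels do not say that equal numbers mark a shared culture: residuals of 5 same-number pairs correlated at -0.088 to 0.234 and those of 22 other pairs at -0.197 to 0.211. Without single arrays the 3 differences between underactivation and N2 ranged from 0.081 to 0.36, -0.28 to -0.086 and 0.29 to 0.52. Those between overactivation and N2 ranged from 3.74 to 4.79 for C06C6.7, 1.14 to 1.33 for F16H6.9 and 1.38 to 1.76 for C18A11.4, and those between overactivation and underactivation from 3.50 to 4.55, 1.35 to 1.47 and 0.98 to 1.35. All 3 genes met the rule under quantile normalization again and under centring on the median; leaving out an array cannot end it, by its construction. Each has 1 probe set of its own, so a mean over several could not be taken.

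The count of probe sets that differed between underactivation and N2, 1, was 2 after quantile normalization again, 16 without dim probe sets, 0 without moderation (limma, with 2890 at an unadjusted p under 0.05 in the moderated fit) and 0 with only the 2 groups, and 0 to 3 without single arrays (3 without N2 replicate 4, 2 without overactivation replicate 4 and 0 without any other array). The count that met the rule, 683, was 430 without dim probe sets, 613 after quantile normalization again, 929 with each array centred on its median, and 722 to 1616 without single arrays, the highest without overactivation replicate 1. Leaving out overactivation replicate 4 gave 1467, overactivation replicate 3 gave 1176 and underactivation replicate 2 gave 1081. The cause was not tested, other than that fewer arrays make the rule easier to meet. The 2 neighbors of C06C6.7 that met it were 4 without overactivation replicate 4, and the 0 neighbors of F16H6.9 were 1 without overactivation replicate 3 or underactivation replicate 2; these counts were chosen after the data were seen.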
